A study of Mus musculus with 4 samples.

Results

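On 4 arrays of mouse pancreatic islet cells, 292 probes of 275 genes gave a bright signal that was lower on both arrays of cells given MOTS-c than on both arrays of cells given a scrambled peptide. These probes were chosen by their values. A probe had to be well above background on all 4 arrays, to carry a gene symbol, to have a mean quantile normalized log2 signal of at least 9, and to show a gap of at least 0.3 on the log2 scale. The gap is the lower of both scrambled values minus the higher of both MOTS-c values. The 292 probes were 2.28% of the 12815 bright probes with a symbol, and their 275 genes were 2.77% of the 9931 genes with such a probe. The mirrored rule, with MOTS-c higher, chose 85 probes of 84 genes, 0.663% of the same bright probes. Because the rule used every array of the contrast, the differences of the chosen probes are given as a description, with no test, and no p-value is attached to any of them. Another 52 probes met the rule without a gene symbol and are not named here.

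MOTS-c is a short peptide encoded within the small ribosomal RNA gene of mitochondrial DNA, and the scrambled peptide is its control. The cells came from 60-week-old C57BL/6 mice, 4 littermates in all, and were dispersed from hand-picked islets into single cells in DMEM with fetal bovine serum. Either peptide was given to the cells at 10 μM for 24 h, after which total RNA was taken. Each group held 2 arrays, numbered as in the labels, 1 and 2 for scrambled and 2 and 3 for MOTS-c, and the sources state n = 2 per group for the 4 littermates. Whether each array held the cells of 1 animal or of a pool, and whether cultures were separate, is not given in the sources used here.

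Pancreatic islets are small clusters of endocrine cells in which beta cells release insulin, alpha cells glucagon and delta cells somatostatin. Beta cells couple glucose metabolism to closure of an ATP-sensitive potassium channel, to calcium entry and to fusion of insulin granules, and receptors coupled to G proteins raise or lower this release. Islet endocrine cells share with neurons many genes of vesicle fusion, ion conduction and cell adhesion.

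The labels describe the mice as male. Of Uty, Kdm5d, Eif2s3y and Ddx3y, genes of the Y chromosome, 7 probes gave 0 readings well above background out of 28, and none exceeded 1.52 times its local background. The 1 probe of Xist, which coats and silences an X chromosome in female cells, lay between 23.7 and 33.5 times its background on the 4 arrays. These values go against the label on every array. Of 10 beta cell markers, 8 were bright, among them Ins1 and Ins2, and Slc2a2 and Ucn3 were not well above background on every array. All 10 cell division markers examined were bright, and the PP cell markers Ppy and Pyy and 3 B cell markers were not kept. All arrays lay on 1 slide, and between 61.6% and 65.0% of gene spots on each were well above background. Across 32868 probes, limma with Benjamini-Hochberg adjustment called 0 probes, which is 0% of those tested, with 0.436 as the smallest adjusted p. At an unadjusted limma p under 0.05 there were 1636 probes lower and 955 higher with MOTS-c. The methods' t-test called 1 lower and 1 higher after adjustment. Its smallest adjusted p was 0, which that test gives only where the arrays of each group have equal values.

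Among the selected probes the median log2 difference, MOTS-c minus scrambled, was -0.59, with a range from -1.59 to -0.34. The median over all bright probes with a symbol was 0.00. A difference of at least 2-fold was reached by 16 of the 292 probes and one of at least 1.5-fold by 149. Most of the gaps were narrow. 158 probes had a gap of at least 0.4, 84 of at least 0.5, 41 of at least 0.6, 9 of at least 0.8 and 2 of at least 1. Groups without any overlap, lower with MOTS-c, were common on these arrays, at 20.6% of all kept probes with a symbol and 21.4% of the bright ones, and 20.8% of the bright ones were higher without overlap, so that the size of the gap and not its sign sets the selected probes apart.

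**Figure D1:**
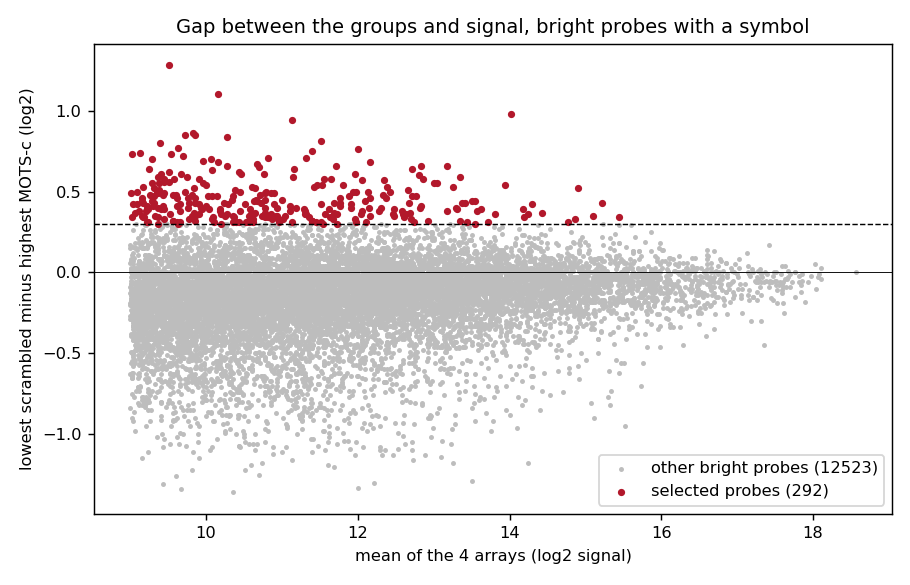
Gap between the groups, the lowest scrambled value minus the highest MOTS-c value, against the mean log2 signal of the 4 arrays for 12815 bright probes with a gene symbol, with the 292 selected probes in red and the gap of 0.3 as a dashed line. Selected probes lie at all signal levels up to a mean of 15.4, and the gaps narrow toward bright signal.

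The selected probes leaned toward the lower end of the bright range. Their median signal was 10.7 on the log2 scale, against 11.6 for all bright probes with a symbol. Of the 7309 bright probes with a mean below 12, 220 or 3.01% were selected, and of the 5506 with a mean of 12 or more, 72 or 1.31%. Just inside the gap of 0.3 were, among others, the probes of Fhdc1, Scml4, Slc43a2 and Enho, with differences of -0.36, -0.43, -0.35 and -0.57. Just outside were Kcnh6, Cyfip2, Rasgrf2, Hbp1 and Akr1c13, with differences of -0.60, -0.50, -0.48, -0.38 and -0.40, so the differences on both sides of the boundary were alike.

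The 2 MOTS-c arrays did not contribute equally. The median distance below the mean of the scrambled arrays was -0.50 on MOTS-c replicate 2 and -0.67 on MOTS-c replicate 3. MOTS-c replicate 3 gave the lowest value of the 4 for 235 of the 292 probes, and it lay below MOTS-c replicate 2 for 62.5% of all bright probes with a symbol. The arrays of a group differed by a median of 0.10 for scrambled and 0.18 for MOTS-c among the selected probes, and by 0.11 and 0.13 among all bright probes. The gap was wider than the difference within either group for 239 probes. For 44 probes the MOTS-c arrays were at least as far apart as the gap is wide, and for 10 probes the scrambled arrays were. Krt90, a keratin, showed the largest distance between the MOTS-c arrays, with 10.77 on replicate 2 and 9.68 on replicate 3. Pappa2, a protease of insulin-like growth factor binding proteins, showed the largest between the scrambled arrays, with 10.33 and 9.63.

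**Figure D2:**
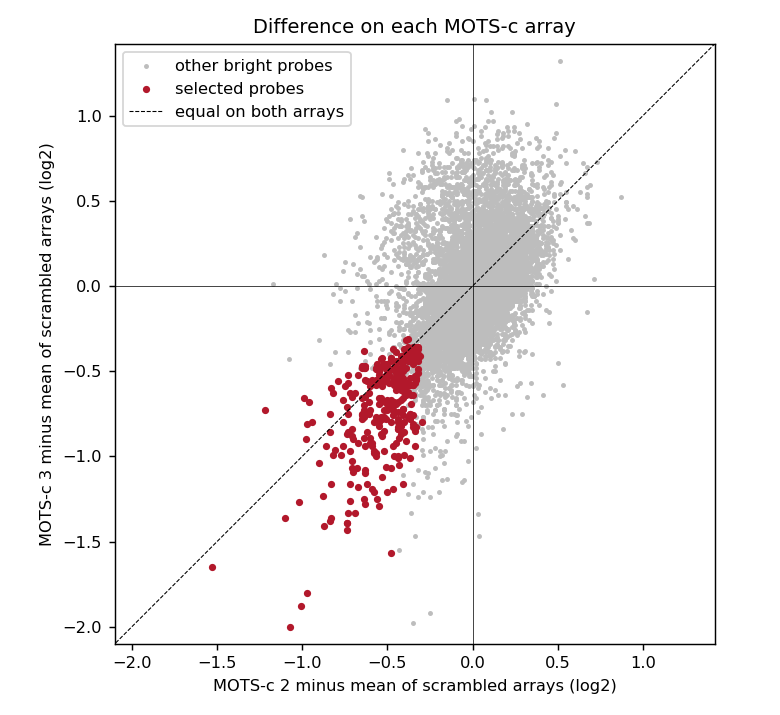
Log2 difference of MOTS-c replicate 2 (horizontal) and of MOTS-c replicate 3 (vertical) from the mean of the scrambled arrays, for all bright probes with a symbol in gray and the 292 selected probes in red, with the dashed line marking equal differences. The selected probes lie in the lower left by construction, and 235 of them lie below the line, where MOTS-c replicate 3 is the lower of both.

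Spike-in transcripts, which are added in equal amount to each labeling reaction, give a level that does not come from the cells. Before quantile normalization the 5 bright spike-in probes differed from the scrambled mean by a median of -0.01 on MOTS-c replicate 2 and -0.29 on MOTS-c replicate 3. On the same scale the selected probes were lower by a median of -0.44 on MOTS-c replicate 2 and -0.58 on MOTS-c replicate 3. All 292 were also lower on both MOTS-c arrays before normalization, which their choice by a gap on these same arrays largely fixes. The 5 spike-in probes were not chosen by their values, and their gaps before normalization lay between -0.03 and 0.03. A gap of 0.3 was reached by 0 of them. Only 2.28% of bright probes with a symbol met the rule, which used normalized values, so 5 probes are too few to serve as a check.

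The widest gap belonged to Pax4, a transcription factor that directs endocrine precursors toward the beta and delta cell fates. Its log2 signal was 10.55 and 10.05 with scrambled and 8.77 and 8.66 with MOTS-c, a difference of -1.59 and a ratio of 3.01 between scrambled and MOTS-c. The MOTS-c arrays lay closer together than the scrambled arrays did. Adh1, the class I alcohol dehydrogenase, which oxidizes ethanol and retinol, was selected with both of its probes. The brighter read 14.89 and 14.70 on the scrambled arrays against 13.72 and 12.79 on the MOTS-c arrays, and the dimmer 11.92 and 11.78 against 10.84 and 9.97. Both probes thus gave the same order of arrays, with MOTS-c replicate 3 lowest by about the same step, and differences of -1.54 and -1.44. Sp110, a nuclear body protein, read 10.78 and 10.76 with scrambled and 9.67 and 9.41 with MOTS-c. Its other 2 kept probes differed in direction, a dim one by -1.0 and a very bright one, at a mean of 16.72, by 0.11, higher on both MOTS-c arrays. Sp110 has related copies in the mouse genome, as does Csprs, which was selected with a difference of -0.78, so their signals are uncertain.

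Further wide gaps were found for regulators of transcription, surface receptors and junction proteins. Eya2, a transcriptional coactivator with phosphatase activity, read 10.28 and 10.31 with scrambled and 9.42 and 8.88 with MOTS-c, and a dim second probe differed by -1.27. Nupr1, a chromatin protein induced by cell stress, read 11.04 and 10.67 against 9.83 and 9.58. Tle6, a member of the Groucho family of corepressors, read 10.28 and 10.27 against 9.42 and 9.33, and the scrambled arrays were nearly equal. Lad1, a protein of the basement membrane zone, read 9.91 and 10.25 against 9.11 and 8.28, with the widest MOTS-c spread of these. The other probes among the 25 with the widest gaps were St6galnac5 at a difference of -0.97, Cibar2 at -0.90, 1700016C15Rik at -0.89, Lzts2 at -1.11 and Gsdma2 at -0.78. They also included Avil at -0.85, Gfra2 at -0.99, Pkp1 at -1.06, Dbn1 at -0.79, Adgrg1 at -0.87, Zfp467 at -0.80 and Sox8 at -0.94. Map2k6 at -0.81, Slc18a3 at -1.10, Prima1 at -1.07, a probe of Dbp at -0.85 and Sstr3 at -0.85 completed them.

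**Figure D3:**
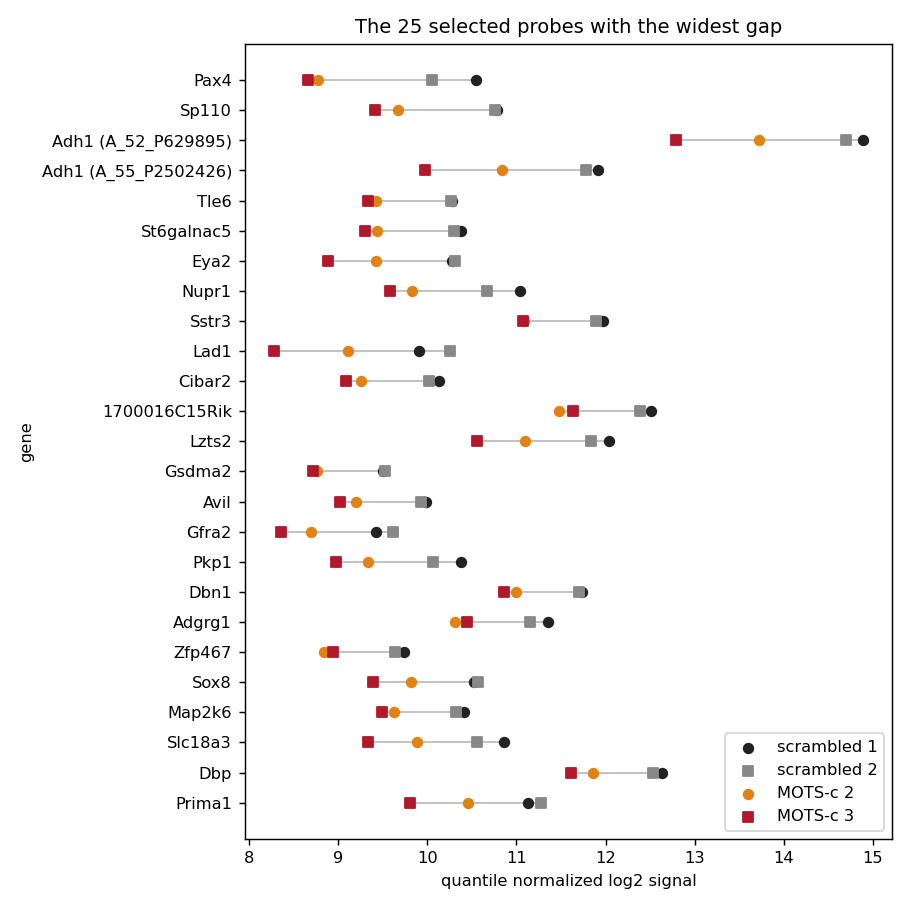
Quantile normalized log2 signal on each of the 4 arrays for the 25 selected probes with the widest gap, ordered by the gap. The scrambled arrays (black and gray) lie to the right of the MOTS-c arrays (orange and red) in every row, as the rule requires, and the spread within a group differs from gene to gene, from nearly equal values for Tle6 to 0.93 between the MOTS-c arrays for the brighter Adh1 probe.

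The promoters of 4 selected genes are shown because they hold the letters of well known regulatory elements, and because each gene is described with its array values here. RefSeq windows from 250 bases before to 50 after the start of transcription, in assembly GRCm38.p6, were matched by symbol for 195 of the 275 genes. Capitals mark an E-box (CACGTG), a cAMP response element (TGACGTCA), a GC box (GGGCGG) or a TATA box (TATAAA), read on both strands. In Krt8, TATAAA and its reverse complement overlap.
Adh1 (chr3:138277335-138277634, plus strand): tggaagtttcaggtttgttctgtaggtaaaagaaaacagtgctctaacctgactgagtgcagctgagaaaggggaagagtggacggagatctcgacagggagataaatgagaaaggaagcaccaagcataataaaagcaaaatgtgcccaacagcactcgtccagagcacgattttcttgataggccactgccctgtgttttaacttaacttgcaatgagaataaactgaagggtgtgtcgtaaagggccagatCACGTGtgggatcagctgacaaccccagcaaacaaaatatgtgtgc
Nupr1 (chr7:126625421-126625720, minus strand): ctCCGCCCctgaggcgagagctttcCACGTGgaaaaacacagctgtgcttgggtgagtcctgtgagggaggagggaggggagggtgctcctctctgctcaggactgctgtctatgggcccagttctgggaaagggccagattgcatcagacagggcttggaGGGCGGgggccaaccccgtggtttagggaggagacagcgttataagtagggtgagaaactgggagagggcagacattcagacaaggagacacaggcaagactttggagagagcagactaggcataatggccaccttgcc
Th (chr7:142899946-142900245, minus strand): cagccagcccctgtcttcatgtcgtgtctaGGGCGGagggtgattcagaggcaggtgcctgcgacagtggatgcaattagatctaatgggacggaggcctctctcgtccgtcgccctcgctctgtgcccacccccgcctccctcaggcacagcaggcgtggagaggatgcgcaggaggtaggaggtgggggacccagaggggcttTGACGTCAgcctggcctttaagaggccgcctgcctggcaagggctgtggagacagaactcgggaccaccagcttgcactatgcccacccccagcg
Krt8 (chr15:102004293-102004592, minus strand): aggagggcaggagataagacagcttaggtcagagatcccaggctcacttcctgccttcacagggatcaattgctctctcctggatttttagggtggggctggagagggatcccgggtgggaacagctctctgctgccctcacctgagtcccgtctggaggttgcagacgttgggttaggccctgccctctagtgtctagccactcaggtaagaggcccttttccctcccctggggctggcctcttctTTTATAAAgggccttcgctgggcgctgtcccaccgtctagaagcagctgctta
The E-box was in the window of 12.8% of the selected genes matched, against 12.3% of matched genes with a bright probe and 8.09% of all genes in the table. The cAMP response element was in 1.54%, 4.07% and 2.03%, the GC box in 66.2%, 71.2% and 38.2%, and the TATA box in 7.69%, 8.40% and 15.7%. The CCAAT box (CCAAT) was in 39.5%, 43.6% and 41.1%, the AP-1 site (TGACTCA) in 6.67%, 4.17% and 5.95%, and the D-box (TTATGTAA) in 1.03%, 0.625% and 1.11%. A match is a description of the letters, and no binding was measured. The median GC content of the selected windows was 60.3%, close to the 61.3% of genes with a bright probe, while the median ratio of observed to expected CpG was 0.529, lower than their 0.777 and higher than the 0.384 of all windows.

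By what their genes are known to do, 208 of the 275 genes were placed in 12 classes after their names had been seen, and 67 were left unassigned. The classes are not independent of the selection and serve as an order of description. Their median differences lay between -0.86 for G protein-coupled receptors and their partners and -0.53 for membrane transporters and for sugar chain and sulfate transferases. 264 of the genes code for proteins, 9 for long noncoding RNAs and 2 for small nuclear RNAs.

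**Figure D4:**
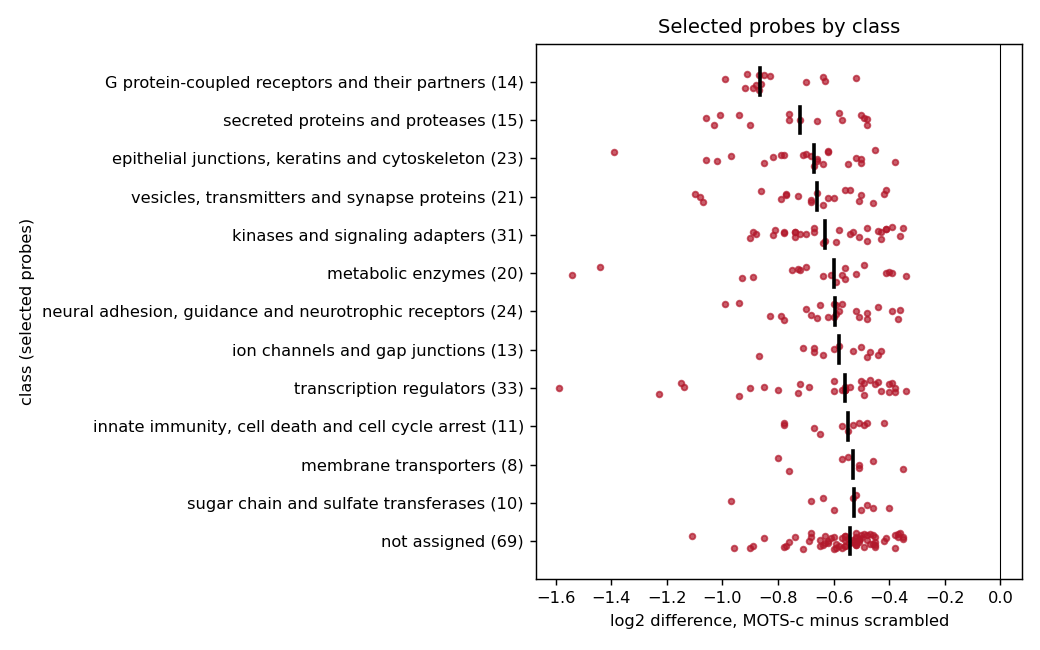
Log2 difference, MOTS-c minus scrambled, of each of the 292 selected probes by functional class, with a black bar at the class median and the number of probes in parentheses. Class medians lie between -0.86 and -0.53, and single probes below -1.4 are those of Pax4 among transcription regulators and Adh1 among metabolic enzymes.

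G protein-coupled receptors and their partners made up 14 of the selected genes, with differences from -0.99 to -0.52. Sstr3, a receptor for somatostatin that inhibits adenylyl cyclase, read 11.97 and 11.89 with scrambled and 11.09 and 11.07 with MOTS-c, with both groups tight. Glp1r and Gipr, the receptors for the incretin hormones GLP-1 and GIP, which raise cAMP in beta cells, were both selected. Glp1r read 9.54 and 9.28 against 8.78 and 8.76, and Gipr 11.10 and 10.64 against 10.22 and 10.11. The scrambled arrays were the more spread for both. Adra2a, the alpha-2A adrenergic receptor that inhibits insulin release, read 12.78 and 12.89 against 12.40 and 12.24. Adora1, an adenosine receptor, and Galr3, a galanin receptor, differed by -0.91 and -0.87. Receptors that couple to phospholipase C were represented by Oxtr for oxytocin at -0.63, Ntsr1 for neurotensin at -0.83 and Tacr3 for neurokinin B at -0.88. Ramp2, the subunit that turns the calcitonin receptor-like receptor into an adrenomedullin receptor, differed by -0.92, and Rgs11, which ends G protein signals, by -0.89. Vmn1r217, of the large family of vomeronasal receptors, Gpr162 and Adgrg1, an adhesion receptor, complete the class, at -0.99, -0.86 and -0.87.

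In the list of incretin receptors and cAMP signaling, 6 of 20 measured genes were lower and 2 higher without overlap, through the brightest kept probe of each gene. Over all 14789 genes with a kept probe the same count gave 22.6% lower and 19.9% higher, and the counts of the other lists are to be read against these shares. Without Glp1r and Gipr, 4 of 18 were lower without overlap, namely Rapgef3, Prkar1b at -0.34, Adcy6 at -0.26 and Prkaca. Gcgr, the glucagon receptor, differed by -0.09, Gnas, the stimulatory G protein subunit, by -0.06, and Prkaca, a catalytic subunit of protein kinase A, by -0.09, with a gap of only 0.01. Rapgef3, a cAMP-activated exchange factor, differed by -0.81 with a gap of 0.65, wider than that of either incretin receptor, at a mean signal of 7.58, below the level of 9 that the rule asks for.

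The ion channel class held 12 genes with a median difference of -0.58. Kcnj11, the pore of the ATP-sensitive potassium channel of the beta cell, read 9.89 and 9.84 with scrambled and 9.22 and 9.09 with MOTS-c, and a dim second probe differed by -0.34. Abcc8, the regulatory subunit of the same channel, was not selected and read 16.17 and 16.03 against 15.78 and 15.88, a difference of -0.27. Among 9 measured genes of this channel and of voltage-gated calcium channels, 5, Kcnj11 included, were lower without overlap and 0 higher. Gjd2, the gap junction protein that couples beta cells, read 9.99 and 9.75 against 9.19 and 8.81. The voltage-gated potassium channels Kcnh1, Kcnh2 and Kcnh3 differed by -0.58, -0.44 and -0.50, and Kcnmb2, a subunit of calcium-activated potassium channels, by -0.64. Receptor channels were present with Chrnb4, a nicotinic acetylcholine receptor subunit, at -0.67, the kainate receptor subunits Grik3 and Grik5 at -0.53 and -0.47, and the acid-sensing Asic1 at -0.67. Jph3, which ties the endoplasmic reticulum to the plasma membrane, differed by -0.60. Clic1, an intracellular chloride channel protein, had 2 selected probes. The brighter is printed as 10 spots on each array, and these repeats, which show the noise of spots within 1 array and nothing of the samples, had an SD between 0.03 and 0.05.

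Genes of vesicles, transmitters and synapses numbered 18, with a median difference of -0.66. Slc18a3, which loads acetylcholine into vesicles, read 10.86 and 10.56 with scrambled and 9.88 and 9.34 with MOTS-c. Slc32a1, which loads GABA and glycine, read 11.81 and 11.60 against 10.96 and 10.28. Prima1, the membrane anchor of acetylcholinesterase, read 11.13 and 11.28 against 10.46 and 9.81. MOTS-c replicate 3 was the lowest for all of these, and 3 probes of the class reached a 2-fold difference. Th and Ddc, consecutive enzymes of dopamine synthesis, were both selected. The brighter Th probe read 14.60 and 14.67 against 14.18 and 13.72, its second probe differed by -0.73, and Ddc by -0.42. Proteins of granule traffic included Rph3al at -0.60, Rab37 at -0.54 and Madd at -0.51, together with the calcium sensor Syt3, whose selected probes differed by -0.77 and -0.68. Ica1, an islet autoantigen of the secretory pathway, differed by -0.46, and a further bright probe of it, not selected, by only -0.19. Dlg4 and Dbn1, scaffold and actin-binding proteins of the postsynaptic side, differed by -0.66 and -0.79. The separate list of exocytosis genes, which holds the SNARE proteins, had 0 selected genes among 12 bright ones, and its 15 measured genes gave 3 lower and 1 higher without overlap.

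Genes of neural adhesion, axon guidance and neurotrophic signals numbered 23, with a median difference of -0.59. The coreceptors Gfra2 and Gfra3, which bind neurturin and artemin for the receptor Ret, differed by -0.99 and -0.83. Gfra2 read 9.42 and 9.62 with scrambled and 8.69 and 8.36 with MOTS-c. Ngfr, the low-affinity neurotrophin receptor, read 12.84 and 12.81 against 12.42 and 11.84, with the scrambled arrays nearly equal and MOTS-c replicate 3 well below. Tenm4, a teneurin, had 2 selected probes at -0.79 and -0.68. Semaphorins and ephrin signals were present with Sema3f at -0.78, Sema4a at -0.59, the ephrin Efna1 at -0.59 and the ephrin receptor Epha8 at -0.65. L1cam, Cdh22, Celsr1 and Igsf21, adhesion molecules, differed by -0.57, -0.39, -0.48 and -0.60.

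Transcription regulators were the largest class, with 29 genes and a median difference of -0.56. Hnf4a, a nuclear receptor whose human counterpart is mutated in a monogenic diabetes, read 12.62 and 12.77 with scrambled and 12.27 and 12.20 with MOTS-c. Of 17 measured islet transcription factors, 8 were lower and 4 higher without overlap, against 22.6% and 19.9% of all genes, and Pax4 and Hnf4a, counted among the 8, were the selected ones. Pdx1 differed by -0.28 and Nkx2-2 by 0.22, and Neurod1 at 0.29 had overlapping groups. Dbp, an output gene of the circadian clock, was selected with 2 probes, which read 12.63 and 12.53 against 11.86 and 11.61, and 12.79 and 12.62 against 12.05 and 11.92. Of 13 measured clock genes, Dbp included, 3 were lower and 2 higher without overlap. Clock and Arntl, which drive the clock, differed by 0.05 and 0.02, and their repressors Per1, Per2, Cry1 and Cry2 by -0.19, -0.21, 0.30 and 0.02. Tef and Hlf, of the same family as Dbp, differed by -0.25 and 0.66. Nfix, a nuclear factor I protein, had 3 selected probes at -0.56, -0.38 and -0.34, and Myt1, a zinc finger protein of neurons and endocrine precursors, 2 at -0.50 each. Relb and Bcl3, members of the NF-kappaB system, differed by -0.60 and -0.56, and Maff, a small Maf protein, by -0.69.

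Among 28 genes of kinases and signaling adapters the median difference was -0.63. Map2k6, an activating kinase of p38, read 10.41 and 10.32 with scrambled and 9.63 and 9.49 with MOTS-c. Mapk3, which encodes ERK1, read 13.50 and 13.52 against 13.11 and 13.10, with both groups within 0.02. Camkk2, a kinase upstream of AMPK, differed by -0.41, and its dim further probes by only -0.18 and -0.26. The list of mTOR and AMPK genes gave 4 lower, Camkk2 included, and 4 higher without overlap among 18 measured. Insrr, a receptor of the insulin receptor family, differed by -0.82, Sgk2 by -0.78, Notch4 by -0.89 and Mfng, which modifies Notch receptors, by -0.88. Socs3, an inhibitor of cytokine signals, differed by -0.35, near the edge of the rule. Phactr1, a regulator of actin and of protein phosphatase 1, had 4 selected probes, the most of any gene, with differences of -0.90, -0.78, -0.74 and -0.63. The brightest selected probe of all was that of Blnk, an adapter protein, at 15.77 and 15.60 against 15.14 and 15.26. Ppp1r14b, an inhibitor of protein phosphatase 1, was also very bright and read 15.17 and 15.16 against 14.62 and 14.64, and Arhgef17, a guanine nucleotide exchange factor, differed by -0.48.

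Metabolic enzymes numbered 18, with a median difference of -0.60. Gpd1, the cytosolic glycerol-3-phosphate dehydrogenase, read 13.29 and 13.30 with scrambled and 12.62 and 12.11 with MOTS-c. Cbs, which condenses homocysteine with serine, read 13.54 and 13.51 against 12.76 and 12.86. Gldc of the glycine cleavage system and Prodh2, a hydroxyproline dehydrogenase, differed by -0.61 and -0.56. Pygl, the liver form of glycogen phosphorylase, differed by -0.52, and the glutathione peroxidase Gpx2 by -0.89. Ak1, adenylate kinase, differed by -0.73 and the bright Akr1c19, an aldo-keto reductase, by -0.34. Nudt7, a hydrolase of coenzyme A in peroxisomes, had 2 selected probes at -0.56 and -0.40, and Aopep, an aminopeptidase outside the classes, 2 at -0.50 and -0.45. None of the lists for glycolysis, the citric acid cycle, the respiratory chain, fatty acid metabolism, sterol synthesis or cytosolic ribosomes held a selected gene, and the median differences of these lists lay between -0.05 and 0.08.

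Sugar chain enzymes included 3 sialyltransferases of one family, St6galnac5, St6galnac2 and St6galnac6, at -0.97, -0.60 and -0.53, and a further one, St8sia5, at -0.48. The sulfotransferases Chst1 and Chst11 differed by -0.68 and -0.64. St6galnac5 read 10.38 and 10.30 against 9.44 and 9.30, and Chst1 14.36 and 14.20 against 13.66 and 13.53. Of the 8 transporters, Slc6a9, which takes up glycine, read 13.32 and 13.11 against 12.51 and 12.32. It was the only selected gene among 10 bright genes on the list of amino acid transport, where 7 of 13 measured genes, Slc6a9 included, were lower and 1 higher without overlap. Slc7a3 and Slc7a7, which carry cationic amino acids, were outside that list and differed by -0.57 and -0.55.

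Epithelial junction, keratin and cytoskeleton genes numbered 23, with a median difference of -0.67. The keratin partners Krt8 and Krt18, which pair in the filaments of simple epithelia and are neighbors in the genome, were both selected. Krt8 read 13.75 and 13.85 with scrambled and 13.25 and 13.31 with MOTS-c, and Krt18 10.84 and 10.94 against 10.45 and 10.09. Lad1 and Pkp1, a plakophilin of desmosomes, are likewise neighbors, and Pkp1 read 10.38 and 10.06 against 9.34 and 8.98. Avil, an actin-binding protein of the villin family, read 9.99 and 9.93 against 9.20 and 9.02. The scaffold Pdzk1 differed by -0.70, Pdzk1ip1 by -0.62, the hyaluronan receptor Cd44 by -0.78 and Anxa2 and Anxa13, annexins, by -0.50 and -0.45. Lamb1, a laminin chain, differed by -0.67 and was the only selected gene among 5 bright genes of the extracellular matrix list.

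Secreted proteins and proteases numbered 15 genes, with a median of -0.72. Fndc5, the precursor of irisin, read 10.07 and 10.30 with scrambled and 9.45 and 8.86 with MOTS-c. Bace2, a protease of beta cells, read 13.02 and 13.01 against 12.48 and 12.55 with its selected probe. A much brighter probe of Bace2, at a mean of 16.4, was not selected and differed by only -0.09, with a gap of 0.04. Padi2, which converts arginine to citrulline in proteins, read 12.47 and 12.42 against 11.85 and 11.52, and the heparan sulfate cleaving Hpse differed by -0.58. Cela1, a digestive enzyme of acinar cells, was also selected, at -0.76, and read 11.77 and 11.90 against 11.23 and 10.92. Of 11 acinar markers, 5 were kept, and Prss1, Prss2, Cpa1, Cela3b, Pnlip and Amy2a5 were not well above background on every array. The summed linear signal of the kept acinar markers was 4555 and 5072 with scrambled and 3174 and 2466 with MOTS-c, and most of it came from Cela1. Its part in the results was not tested. In RNA of mixed cells, fewer cells of a type and less RNA per cell cannot be told apart.

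The class of innate immunity, cell death and cell cycle arrest held 10 genes, with a median of -0.55. Gsdma2 and Gsdmd, of the gasdermin family of pore-forming proteins, differed by -0.78 and -0.53, and Gsdmd read 11.96 and 11.71 with scrambled and 11.27 and 11.35 with MOTS-c. Oasl1, an interferon-induced protein, had 2 selected probes at -0.65 and -0.57, and Isg20, an exonuclease induced by interferon, differed by -0.51. The list of interferon response genes held 0 selected genes, with 3 lower and 7 higher without overlap among 15 measured, against 22.6% and 19.9% of all genes, and a median of 0.13. Cdkn2b, which encodes the cell cycle inhibitor p15, read 10.93 and 11.02 against 10.58 and 10.41, and its brightest probe, just short of the rule, had a gap of 0.28. Bbc3, the cell death protein PUMA, differed by -0.49. In the list of p53 targets and cyclin-dependent kinase inhibitors, 7 of 17 measured genes, Cdkn2b and Bbc3 included, were lower without overlap. Without these selected genes, 5 of 15 were lower, Cdkn2a among them at -0.31. In the same list 2 were higher, Ccng1 at 0.67 and Sesn1 at 0.13, and the shares of all genes were again 22.6% and 19.9%. The groups overlapped for Cdkn1a, at -0.09. C1qa, a complement gene of macrophages, read 10.40 and 9.95 against 9.43 and 9.58. Of 7 macrophage markers, 5 were kept, C1qa was the selected one, Adgre1 and Lyz2 were not kept, and the summed signal was 10991 and 12164 with scrambled against 9788 and 12055 with MOTS-c.

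Over the 27 functional lists, 344 genes had a bright probe and 11 of these were selected, 3.2% against the 2.77% of all genes with a bright probe, a share near the background. These were Pax4, Hnf4a, Kcnj11, Glp1r, Gipr, Cdkn2b, Bbc3, Lamb1, Slc6a9, Dbp and Camkk2. Of the 67 genes without a class, Hhat read 12.44 and 12.42 with scrambled and 11.81 and 11.15 with MOTS-c, and Btbd17 13.21 and 13.20 against 12.62 and 12.41. Shisal1 had 2 selected probes at -0.68 and -0.52, as had Golga7b, in the synapse class, at -0.64 and -0.50. The U1 small nuclear RNA copies Rnu1b1 and Rnu1b6 were among the brightest, at -0.37 and -0.42, and being near identical they cannot be told apart by hybridization. The gene 0610040J01Rik, also among the 10 brightest, differed by -0.45. Pnmal1 and Pnmal2, adjacent genes of one family, differed by -0.52 and -0.65. The Pnmal2 probe is the other one printed as 10 spots, with an SD between 0.09 and 0.11 within an array.

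Several probes of one gene are printed at different places on the array and are a check of the probe, though not of the samples, since they share the same RNA. In all, 14 genes had more than 1 selected probe, 31 probes together. For 102 selected genes, 127 further probes were kept but not selected, and 121 of these had a lower mean with MOTS-c, with a median difference of -0.41. In 92 of the 127 the groups did not overlap in the lower direction, against 20.6% of all kept probes with a symbol. Of the 40 further probes that were themselves bright, 38 had a lower mean and 31 did not overlap, with a median of -0.34. Among all bright probes with a symbol, 49% had a lower mean and 21.4% were lower without overlap. Further probes higher on both MOTS-c arrays were found for 3 genes, Sp110, Smarcal1 at 0.18 and Zfpm1 at 0.16, so for these the selected probe is not borne out by every other one. For 159 genes the selected probe was the only one kept.

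**Figure D5:**
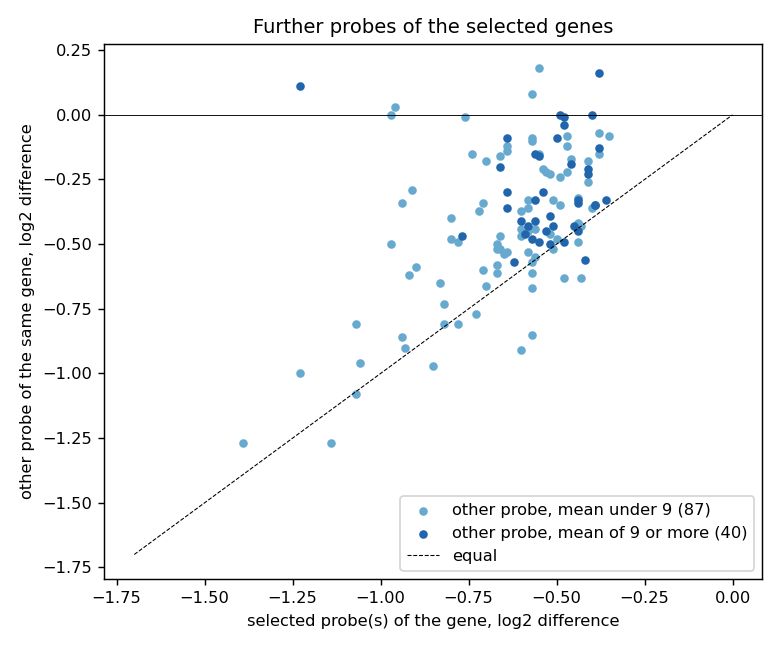
Log2 difference of the 127 kept but not selected probes of selected genes (vertical) against the mean difference of the selected probes of the same gene (horizontal), with the dashed line marking equal differences. Of the further probes, 121 lie below 0, and most lie above the line, with a smaller difference than the selected probe.

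Along the genome the selected genes lay on every autosome and the X chromosome. The share of genes with a bright probe that were selected ran from 1.18% on chromosome 14, with 4 of 340 genes, to 5% on chromosome 15, with 21 of 420, against 2.77% of all. In 26 cases a selected gene had its next selected gene within 100000 bases, a count for which no background over other genes was made. These pairs included genes of one family, such as Tle2 and Tle6, Krt8 and Krt18, Pnmal1 and Pnmal2 and the copies Rnu1b1 and Rnu1b6. Unrelated neighbors were also among them, such as Kcnh1 and Hhat, Nxph3 and Ngfr, Syt3 and Lrrc4b, and the run of Trim46, Efna1 and Zbtb7b.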

How the data were processed

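RNA of the 4 samples was amplified and labeled with Cy3 by the authors, hybridised to one-color Agilent mouse arrays and read with Feature Extraction. The authors deposited the processed intensity of each spot, with background subtracted and without normalization between arrays, and a second table of the same intensity values, rounded. From the deposited files, control spots (3671 per array) and between 96 and 131 outlier spots per array were removed, the log2 of the intensity was averaged over the spots of each probe, probes had to be well above background on all 4 arrays, and the arrays were quantile normalized with limma (version 3.58.1, in R 4.3.3). The methods of the study filter on an undefined Flag A, for which the background rule was used instead. Of 56605 probes 32868 were kept, 21814 of them with a symbol. Symbols were assigned through the RefSeq accession of the probe and the gene table of GRCm38.p6, which named 32994 of all probes. Coordinates are given for promoters only, because the array was designed on a different build.

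MOTS-c was compared with scrambled in limma across all kept probes with Benjamini-Hochberg adjustment, with 2 residual degrees of freedom. The p-values measure the spread between these samples, which may be technical, and the number of arrays limits the precision. Members and gene lists were chosen with earlier results of these data known, and the classes after the member names had been seen. The text names the 25 selected probes with the widest gap, the 10 brightest, those of genes with several selected probes, those on gene lists, the 5 on each side of the gap of 0.3, and examples of each class. Some genes under this rule are left out here. A list is described through the brightest kept probe of each gene. Cell type markers were checked in 14 lists, of which the endothelial, mesenchymal, ductal, T cell, Schwann cell, alpha cell and delta cell lists held 0 selected genes.

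The alternatives were a shift by the 75th percentile, a normexp background correction with an offset of 50 on median spot signals (the files used here hold no mean signal), the authors' rounded values, other filters on dim probes and outliers, other limits for the gap and the mean, only symbols of the gene table, the mean over the probes of a gene, leaving out each array, limma with a trend and the methods' t-test. The steps were tested on simulated data.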

Additional observations from a re-analysis of the deposited data

How the results depend on the processing

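Of 1476 values of 164 selected probes under the alternatives, 1417 moved by less than the spread between replicates, 59 by more and 0 reversed, which the choice of probes by a gap on the same arrays largely fixes and which is no sign of stability. The median difference of the selected probes lay between -0.67 (without MOTS-c replicate 2) and -0.51 (without MOTS-c replicate 3). The number selected depended on the limits themselves: a gap of 0.2 gave 578 probes of 534 genes and a gap of 0.4 gave 158 of 154. Leaving out 1 array gave 468 to 987 probes and 430 to 916 genes, the most without MOTS-c replicate 2, a step that loosens the rule by its construction. Of the 292 probes, 282 were selected again without scrambled replicate 1, 284 without scrambled replicate 2, and 292 without either MOTS-c replicate. A minimum mean of 10 gave 196 probes, 196 of them among the 292. The normexp correction gave 306 probes, 254 of them among the 292, and the 75th percentile shift 332, with 286 shared. Probes lower at an unadjusted limma p under 0.05 numbered 2592 without a filter on dim probes and 876 to 2451 when 1 array was left out (876 without scrambled replicate 2, 939 without scrambled replicate 1, 2451 without MOTS-c replicate 2). At the adjusted threshold limma called 0 lower probes in each alternative run, and the methods' t-test called 1. An arm left with 1 array is assumed to vary like the other. No paired analysis was possible because the groups compared share fewer than 2 replicate numbers. Dim probes are limited by background, and the selection used every array, so none was left to check it.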
